A study of Mus musculus with 3 samples.

Results

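The genes described here are the transcription factor NRF2 (gene Nfe2l2), its inhibitor KEAP1, and 8 genes of the redox and heme programme that NRF2 induces outside glutathione metabolism. They were taken as every probe set whose platform annotation gave exactly 1 gene symbol, with that symbol among Nfe2l2, Keap1, Sqstm1, Nqo1, Hmox1, Blvrb, Txn1, Txnrd1, Srxn1 and Osgin1. That gave 19 of the 45101 probe sets on the array and 10 of 18193 genes. 4 of the genes had 1 probe set and 6 had several. The cells were NIH3T3, an immortalised mouse embryonic fibroblast line, in a screen for short hairpin RNAs (shRNAs) that make cells more resistant to oxidative stress. Expression was profiled on 3 single-colour arrays. 2 held cells carrying the empty vector, described as untreated, grown in DMEM with calf serum and giving the basal state. 1 held cells carrying an shRNA against retinol saturase (RetSat, gene Retsat) and described as highly resistant to t-BHP, which is tert-butyl hydroperoxide, an organic peroxide. The empty-vector arrays are called control 1 and control 2 here, by the numbers in their titles, and the array with the shRNA is called the knockdown array. Its title also carries the number 2, and what these numbers stand for is not stated. For the knockdown cells no medium or treatment is stated, and for all of them neither the vector's promoter nor whether cells were cloned or pooled.

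In unstressed cells KEAP1 holds NRF2 in the cytoplasm and presents it to a CUL3 ubiquitin ligase, so that NRF2 protein is made and degraded continuously. Oxidants and electrophiles modify cysteines of KEAP1, NRF2 escapes degradation, enters the nucleus, pairs with a small MAF protein and binds antioxidant response elements near its target genes. Because this control acts on the protein, the Nfe2l2 transcript is not a direct measure of NRF2 activity, and induction is usually read from targets such as Nqo1, Hmox1, Srxn1 and Txnrd1.

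None of the 10 genes passed the test of knockdown against control across all genes. The signal of Osgin1 was 149.5% of the control mean, that of Hmox1 was 125% and that of Nqo1 was 93.0%, while Nfe2l2 itself lay at 76.0%. On the log2 scale the 10 differences ran from -0.36 (Nfe2l2) to 0.53 (Osgin1), with a median of 0.23, beside a median of 0.07 over all 10843 tested genes. After quantile normalization these medians were 0.14 and 0.10. The plainer pattern lay between the control arrays. 9 of the 10 genes read higher on control 2 than on control 1, as did 59.3% of all tested genes, and Nfe2l2 was the exception. For 9 of the 10, Nqo1 being the exception here, the knockdown array lay nearer control 2, as it did for 77.3% of all tested genes.

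**Figure D1:**
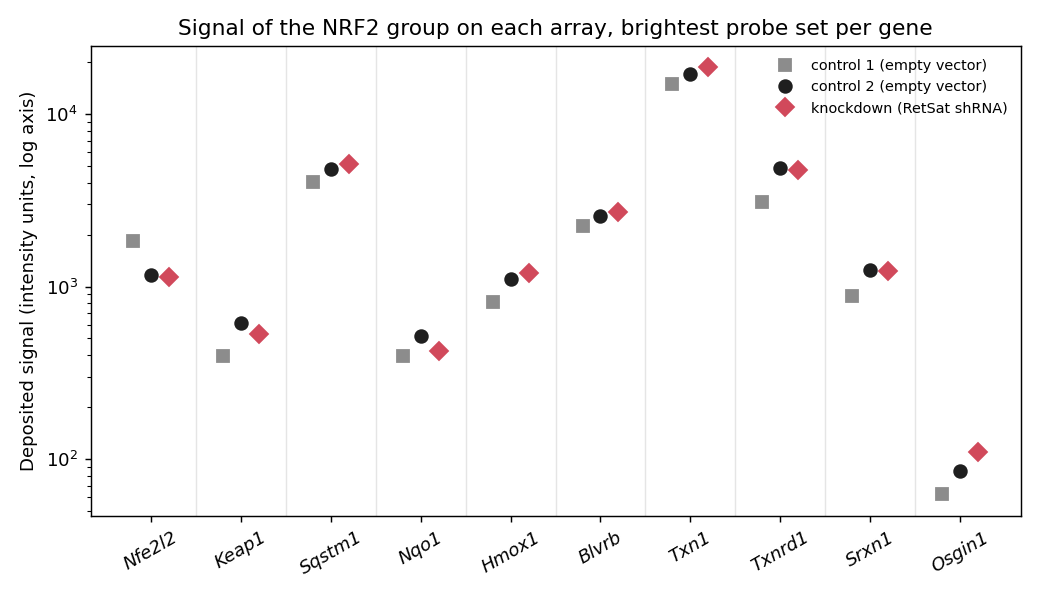
Deposited signal (intensity units, log axis) of the brightest probe set of each of the 10 genes on the 3 arrays; each point is 1 array, so there are no error bars. Control 1 has the highest Nfe2l2 signal (1837 against 1167 and 1142) and the lowest signal for each of the other 9 genes. Of all tested genes, 59.3% read higher on control 2 than on control 1, and 59% read higher on the knockdown array than on control 1. The share with control 1 below both was not counted. Levels of different genes are not comparable with each other.

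Values are deposited signals on a linear scale, and differences are of log2(signal + 10.2), where the offset is the 25th percentile of all deposited values and makes differences of dim genes smaller. Each gene was represented by its brightest probe set. The comparison was fitted in limma over all 10843 genes, with 1 residual degree of freedom that comes from the controls. Each gene's variance was moderated by a prior from all tested genes, giving 10.5 total degrees of freedom. An SE or interval given here therefore does not measure that gene's own control spread alone. 0 of the 10 genes passed an adjusted p of 0.05, and 0% of all tested genes did. The adjusted p was 0.9999 for each of the 10, and 0 of them had an unadjusted p under 0.05, as 108 of all genes had. The 95% intervals of the 10 differences extended 1.11 to 1.17 log2 units to each side, which is 2.16-fold to 2.26-fold around each estimate. Retsat, the targeted gene, read 416 and 496 on the controls and 69.5 on the knockdown array, which is 15.2% of the control mean and goes with the label of that array. That drop did not pass the test either (log2 difference -2.54, limma adjusted p = 0.9999, unadjusted p = 0.000432), and Retsat was 1 of 7 genes that passed with a robust variance prior. A miss in this fit therefore says little about the size of a change.

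The arrays were unequally alike, which bears on every value that follows. Over the tested genes the SD of the log2 difference was 0.34 between the knockdown array and control 2, 0.74 between the controls and 0.75 between the knockdown array and control 1. Control 2 and the knockdown array share the number 2 in their titles, and whether they share a batch is not stated. Fibroblast markers were all well represented (7 of 7 past the filter on dim genes), with summed signals of 67436 on control 1, 68094 on control 2 and 69364 on the knockdown array. Single fibroblast markers went both ways beneath these sums, with Pdgfrb at 1287, 2548 and 2455, Thy1 at 1923, 1347 and 1763 and Vim at 18225, 15264 and 14642 in the same order. Markers of other cell types were dim, with summed signals over the 3 arrays of 198 to 218 for epithelial cells (2 of 5 past the filter), 251 to 283 for macrophages and other leukocytes (2 of 5) and 51.6 to 91.3 for endothelium (0 of 4). Of 4 adipocyte markers 2 were measured. Their sum of 337 to 489 came almost wholly from the fatty acid binding protein Fabp4, and the defining Adipoq read 1.7, 3.8 and 24.8. In bulk RNA fewer cells of a kind and less RNA per cell cannot be told apart.

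Among the regulators, Nfe2l2 was the 1 gene that read lower after knockdown than on both control arrays. Its brighter probe set read 1837 and 1167 on the controls (1502 ± 474, SD, n = 2) and 1142 after knockdown. The high value was that of control 1 alone, and the other arrays were close together. The log2 difference from the control mean was -0.36 (SE 0.53, limma), made up of -0.68 from control 1 and -0.03 from control 2, while the control arrays differed by -0.65. The difference therefore did not exceed the spread between the control arrays. With each array centred on its median, the knockdown array lay between the control arrays for Nfe2l2 instead of below both, and with its 2 probe sets averaged the difference turned to 0.43. The tested genes most like Nfe2l2 over the 3 arrays, by Euclidean distance between centred log2 profiles, were Magt1 (1443, 917 and 897; distance 0.0018), Ankmy2 (distance 0.0066) and Alcam (distance 0.0077). With 3 arrays many genes share such a profile, and 202 tested genes lay within a distance of 0.1.

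Keap1, the substrate adaptor that marks NRF2 for degradation, ran the opposite way between the control arrays. It read 394 and 613 on the controls (503 ± 155, SD, n = 2) and 530 after knockdown, so the knockdown array lay between the controls. Its log2 differences were 0.42 from control 1 and -0.21 from control 2. A second probe set read 113 and 178 on the controls and 115 after knockdown. Both probe sets thus had control 2 as the highest array, but the second placed the knockdown array level with control 1, and with both averaged the difference from the control mean turned from 0.11 to -0.09.

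Sqstm1 encodes p62, an autophagy receptor that can displace NRF2 from KEAP1 and is itself an NRF2 target. Its signals were 4028 and 4833 on the controls (4431 ± 569, SD, n = 2) and 5142 after knockdown, which was the highest array by 1.06 times over control 2. The log2 difference from the control mean was 0.22 (SE 0.50, limma), below the gap of 0.26 between the controls.

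Nqo1, the quinone reductase most often used as a readout of NRF2, did not read higher after knockdown than on both control arrays. It read 395 and 515 on the controls (455 ± 85.0, SD, n = 2) and 423 after knockdown. The knockdown array lay between the controls, 0.10 log2 units above control 1 and 0.28 below control 2. The difference from their mean was -0.09, with a 95% interval from -1.22 to 1.04. Of the 10 genes Nqo1 lay farthest below control 2.

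Hmox1 and Blvrb, the heme-degrading genes of the group, were higher on the knockdown array than on both controls, by small margins over control 2. Of all tested genes, 34.4% were higher than both controls. Hmox1 encodes heme oxygenase 1, which opens heme to biliverdin, iron and carbon monoxide, and it read 811 and 1110 on the controls (961 ± 212, SD, n = 2) and 1203 after knockdown. The ratio was 1.48 to control 1 and 1.08 to control 2, and the log2 difference of 0.34 from the mean was smaller than the control gap of 0.45. Blvrb, a biliverdin and flavin reductase, read 2231 and 2561 on the controls (2396 ± 234, SD, n = 2) and 2716 after knockdown. Its ratios were 1.22 and 1.06, and its difference of 0.18 from the mean lay just under the control gap of 0.20.

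In the thioredoxin system, which passes electrons from NADPH to oxidised protein thiols and peroxiredoxins, Txn1 was highest after knockdown while Txnrd1 and Srxn1 were level with control 2. Thioredoxin itself, Txn1, read 14938 and 17050 on the controls (15994 ± 1493, SD, n = 2) and 18724 after knockdown. Its log2 difference of 0.23 from the mean exceeded the gap of 0.19 between the controls, as a difference did in 28.4% of all tested genes, and was not past limma's threshold. The dimmer probe set of Txn1 gave 131 and 128 on the controls and 124 after knockdown, so there the knockdown array was the lowest.

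Txnrd1, the selenoenzyme that reduces thioredoxin, read 3077 and 4879 on the controls (3978 ± 1274, SD, n = 2) and 4740 after knockdown. Control 1 stood low and the other arrays differed by 0.04 log2 units. Srxn1, sulfiredoxin, which restores over-oxidised peroxiredoxins, behaved alike on its brightest probe set, at 877 and 1241 on the controls (1059 ± 258, SD, n = 2) and 1235 after knockdown. The remaining probe sets of Srxn1 read 526, 572 and 648, then 231, 252 and 249, and then 56.7, 96.9 and 80.5 on control 1, control 2 and the knockdown array. All 4 had control 1 as the lowest array, and 1 of the 4 placed the knockdown array above both controls.

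Osgin1, an oxidative stress induced growth inhibitor, had the largest difference of the 10 genes from the control mean. It read 62.2 and 85.2 on the controls (73.7 ± 16.3, SD, n = 2) and 110 after knockdown. The knockdown array was 1.77 times control 1 and 1.29 times control 2, and the controls did not reach it. The log2 difference was 0.53 (SE 0.51, limma), against a gap of 0.40 between the controls, with a 95% interval from -0.60 to 1.67. Osgin1 and Txn1 were the 2 of 10 genes whose difference exceeded their own gap between the controls, as a difference did in 28.4% of all tested genes. Osgin1 was also the 1 gene left out when the filter was raised to the 75th percentile.

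Counted together, 5 of the 10 genes (Blvrb, Hmox1, Osgin1, Sqstm1 and Txn1) read higher on the knockdown array than on both controls, beside 34.4% of all tested genes, and 1 (Nfe2l2) read lower than both, beside 25.4%. With arrays centred on their medians these counts were 7 and 0, beside 45.4% and 18.3% of all tested genes. None of the 10 was at least 2-fold from both control arrays, as 0.590% of all tested genes were. Set against control 2 alone, 5 genes were higher and 5 lower, where 49.9% of all tested genes were higher, and the 10 differences ran from -0.28 (Nqo1) to 0.34 (Osgin1). Set against control 1 alone, 9 were higher and 1 lower, where 59% of all tested genes were higher. These comparisons share arrays, so the counts are not independent of one another.

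The step between the control arrays was larger than the step from control 2 to the knockdown array for this group. From control 1 to control 2 the median of the 10 genes was 0.39, against 0.14 over all tested genes, and the 9 genes other than Nfe2l2 ran from 0.19 (Txn1) to 0.66 (Txnrd1). From control 2 to the knockdown array it was 0.04, against 0.00. From control 1 to the knockdown array it was 0.39, against 0.14. Centring the arrays on their medians moved the last of these medians over all genes by 0.11. With the median of all genes subtracted, the 10 genes lay 0.25 above control 1 on control 2, and 0.24 above it on the knockdown array. The direction between the controls was the same for each of the 10 genes after centring and after quantile normalization. When the log2 signals of all of a gene's probe sets were averaged, 7 of 10 read higher on control 2, and Sqstm1 and Txnrd1 joined Nfe2l2 as lower. In Sqstm1 this came from its second probe set (23.2 and 6.8 on the controls), which did not pass the filter on dim signals. In Txnrd1 it came from its second-brightest probe set (315 and 32.8). With this averaging the median over all tested genes from control 1 to control 2 was 0.08. The share of all genes higher on control 2 was not counted there.

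**Figure D2:**
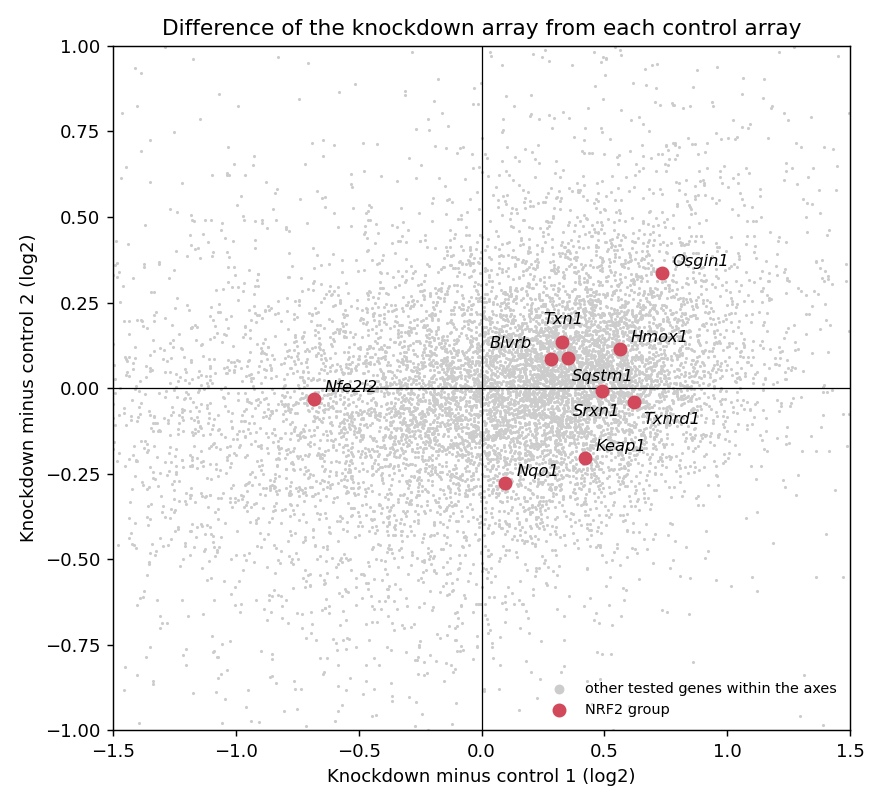
Log2 difference of the knockdown array from control 1 (horizontal axis) and from control 2 (vertical axis) for the 10 genes (red) and the other tested genes within the axes (grey), 1 point per gene; both axes share the knockdown array. The 10 genes spread from -0.68 to 0.73 horizontally and only from -0.28 to 0.34 vertically.

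Probe sets of a gene did not always rank the arrays alike. Of the 19 probe sets, 8 placed the knockdown array above both controls, 3 below both and 8 between them, and 17 passed the filter on dim signals. By brightest probe set, 34.4% of all tested genes lay above both and 25.4% below both. The same shares over all probe sets were not counted. The 2 that did not pass were the second probe sets of Nfe2l2 (31.1 and 5.0 on the controls, 47.9 after knockdown) and Sqstm1 (23.2, 6.8 and 32.5). Both had the knockdown array as the highest array, which for Nfe2l2 is the opposite of its bright probe set. Whether such signals stood above background is not known, since detection calls were not used.

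Between the control arrays the widest disagreement was in Txnrd1, while for the difference from the control mean it was in Nfe2l2 (-0.36 and 1.21, the second from its dim probe set). The second-brightest probe set of Txnrd1 read 315 and 32.8 on the controls and 93.8 after knockdown, so that control 1 was 9.60 times control 2. On the brightest probe set control 1 was the lowest array. The third read 43.2, 66.7 and 35.0, and its identifier ends in _x_at, which marks a probe set with probes that may also bind other transcripts. Averaging the log2 signals of the 3 turned the sign of the Txnrd1 difference from 0.29 to -0.13.

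**Figure D3:**
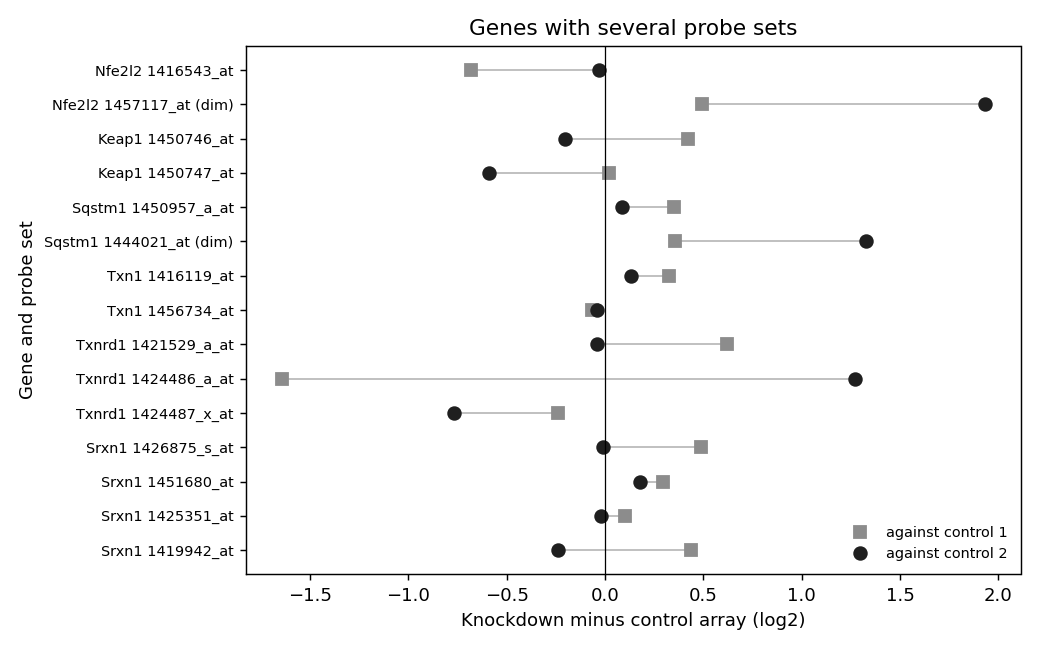
Log2 difference of the knockdown array from control 1 (grey squares) and from control 2 (black circles) for each of the 15 probe sets of the 6 genes with several; the line joins the values of a probe set, and dim marks those under the filter. The 2 dim probe sets and the second-brightest of Txnrd1 lie outside the range of the other probe sets against at least 1 control.

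NRF2 binds antioxidant response elements, and the promoters of the group were searched for the letters of such elements. RefSeq windows (GRCm38.p6) from 250 bases before to 50 bases after a transcript start were given for 9 of the 10 genes, as 12 windows. Hmox1 had no window and was not searched. The core of the element, TGACNNNGC, read on both strands, was found for Nfe2l2, Srxn1 and 1 of the 3 starts of Txnrd1, so for 3 of 9 genes, and for 14.0% of the 27025 genes with a window. The form TGANTCAGC was found for Srxn1 and Osgin1 (2 of 9, and 1.37% of all genes). It contains TGANTCA, which is also the letters of an AP-1 site and was found for the same 2 genes and for 8.97% of all genes. Where the fourth base is C, TGANTCAGC is also a case of TGACNNNGC. A match is a description of letters and not a site, and elements farther from the start lie outside these windows. The stretches upstream of the start that hold matches are given 5′ to 3′ on the gene's strand, with the matches in capitals.
Srxn1, chr2:152105382-152105523, plus strand: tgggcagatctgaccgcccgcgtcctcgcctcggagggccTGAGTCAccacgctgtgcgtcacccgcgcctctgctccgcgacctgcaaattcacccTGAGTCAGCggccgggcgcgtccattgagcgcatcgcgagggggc
Osgin1, chr8:119437008-119437096, plus strand: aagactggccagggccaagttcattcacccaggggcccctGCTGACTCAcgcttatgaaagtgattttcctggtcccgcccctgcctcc
Nfe2l2, chr2:75704855-75704913, minus strand: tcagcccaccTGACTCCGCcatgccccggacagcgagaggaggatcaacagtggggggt
Txnrd1, chr10:82859074-82859162, plus strand: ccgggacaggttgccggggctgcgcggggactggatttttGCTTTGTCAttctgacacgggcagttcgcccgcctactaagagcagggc

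In Srxn1 the TGANTCA matches began 102 and 45 bases before the start, the nearer one in the longer form, and a TGACNNNGC match (read as TGACCTAGC on the other strand) lay after the start. Osgin1 held the longer form on the other strand 99 bases before a start, Nfe2l2 held its match at 240 bases and Txnrd1 at 92 bases. The 4 genes with a match did not share 1 order of the arrays. On their brightest probe sets Osgin1 was highest after knockdown, Srxn1 and Txnrd1 were level between control 2 and the knockdown array, and Nfe2l2 was highest on control 1. In Osgin1, Srxn1 and Txnrd1 control 1 was the lowest array. Control 1 was also the lowest in Keap1, Sqstm1, Nqo1, Blvrb and Txn1, which had no match, and in Hmox1, which was not searched. The share of all tested genes with control 1 as the lowest array was not counted. A link between matches and the order of the arrays was not tested.

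The other genes of the pathway were covered by 6 lists, of which 108 genes were tested. Of these, 43 (39.8%) read higher after knockdown than on both controls and 23 (21.3%) lower, close to the 34.4% and 25.4% of all tested genes. None of them passed limma, as none of all tested genes did. The genes named from each list are those that stood farthest from whichever control was nearer. Their signals are given in the order control 1, control 2, knockdown.

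Regulators and partners of NRF2 were balanced, with 5 of 20 above both controls, 5 below and a median of 0.07 against the control mean. The small MAF partner Mafg read 430 and 626 on the controls and 776 after knockdown. The chromatin remodeller Chd6 read 176, 90.1 and 66.9, the coactivator Ep300 read 428, 391 and 331, and Btrc, an adaptor of a second ubiquitin ligase for NRF2, read 286, 264 and 224. In these 3 the knockdown array was the lowest, and in Chd6 control 1 stood far above the others.

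Other thioredoxin system genes had 9 of 19 above both controls and 3 below, with a median of 0.12. The 4 genes of the rule included all 3 that were lower. Sesn3 and Sesn1, sestrins of the stress response, read 593, 530 and 380 and 414, 386 and 355, and Txnrd2, the mitochondrial thioredoxin reductase, read 226, 201 and 160. Txndc17, a thioredoxin-like protein, read 2637, 2699 and 2968. Txnrd2 thus lay below both controls where its cytosolic relative Txnrd1 lay between them, a difference that was not tested.

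Heme and bilirubin handling genes had the highest median of the 6 lists against the control mean, 0.20, with 7 of 15 above both controls and 3 below. The list's median was 0.48 from control 1 to control 2 and 0.01 from control 2 to the knockdown array, where quinone and carbonyl reduction (0.11) and the thioredoxin system (0.05) had higher medians. Hebp1, a heme-binding protein, read 426, 757 and 1021, the heme exporter Flvcr1 read 585, 844 and 889, and the membrane heme-binding protein Pgrmc1 read 5816, 6783 and 7239. Uros, of heme synthesis, was lower after knockdown at 218, 216 and 166.

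Partners of p62 in selective autophagy went both ways, with 7 of 17 above both controls and 6 below. The ATG8 family members Gabarap (5914, 6836 and 7890) and Map1lc3a (2778, 4418 and 5092), which p62 binds on autophagosomes, were highest after knockdown. The scaffold proteins Wdfy3 (482, 538 and 366) and Rb1cc1 (605, 94.4 and 71.7) were lowest. In Rb1cc1 nearly the whole difference was that of control 1 from the other arrays.

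Quinone and carbonyl reduction genes had 6 of 15 above both controls and 1 below, with a median of 0.13. The 4 named were all higher after knockdown. Epoxide hydrolase Ephx1 read 1831, 2695 and 3138, the aldehyde dehydrogenase Aldh2 read 1063, 1469 and 1600, the reductase Ptgr1 read 7907, 8292 and 9140, and the aldehyde reductase Akr1a1 read 15440, 17253 and 18605. Nqo1, which belongs with them by function, lay between the controls.

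Glutathione, NADPH and other classical targets had 9 of 22 above both controls and 5 below, with medians of 0.12 against the control mean and -0.01 against control 2. Mgst1, a microsomal glutathione transferase, read 5255, 7198 and 8677. Gstm3 was the 1 of the 108 genes of the 6 lists at least 2-fold from both controls, where 0.59% of all tested genes were. It was lower (62.3, 75.9 and 23.1), and its knockdown signal lay under 33.3, the level of the filter on dim genes. Tkt, of the pentose phosphate pathway, and Gsr, glutathione reductase, complete the 4 named and lay 0.27 and 0.55 above the control mean.

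**Figure D4:**
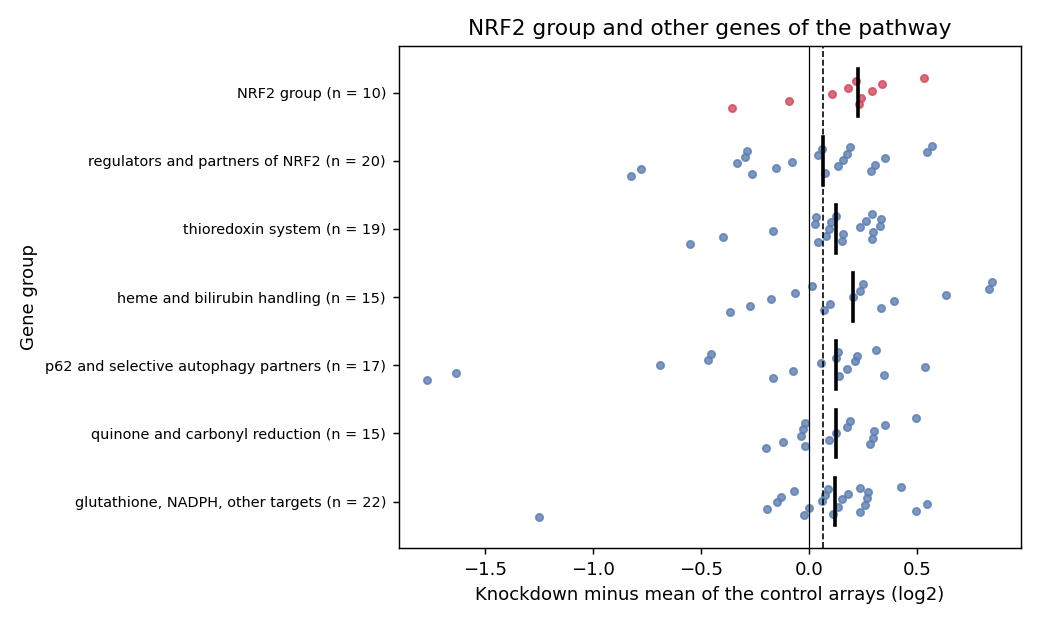
Log2 difference of the knockdown array from the control mean for the NRF2 group (red) and for 6 lists of other pathway genes (blue), 1 point per tested gene, with bars at the list medians and a dashed line at the median of all tested genes (0.07). Medians of the 6 lists run from 0.07 to 0.20, against 0.23 for the 10 genes. Against control 2 alone the 10 genes' median was 0.04, below those of 2 lists (0.11 and 0.05), and against control 1 it was 0.39, below the 0.40 of the heme list; points of every list lie on both sides of 0.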

How the data were processed

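Linear-scale intensities per probe set were deposited for 3 arrays of NIH3T3 cells. Not given in the sources used here are the software, the scanner and the summarisation method. The deposited intensities had a 2% trimmed mean of 250.0 on each array, so they had been scaled to a common level, and no further normalization was applied. Array controls (64) were left out. Gene symbols came from the platform annotation, checked by gene ID against RefSeq (0 changed). Each gene took its probe set of highest mean log2 signal and was tested where that mean reached the median over all probe sets. RetSat shRNA (1 array) was compared with empty vector (2 arrays) in limma 3.58.1 (R 4.3.3), two-sided, with Benjamini-Hochberg adjustment. The fit was tested on simulated data with a smaller spread than these controls show. The labels do not say whether the controls were separate cultures. The p-values reflect only the spread between those arrays, taken largely from all tested genes together, and that spread may be technical. The fit lets the single shRNA array vary as the controls do. The number of arrays limits the precision. The 10 genes and the lists were chosen with earlier results of these data known. Beside the 10 genes and Retsat, the genes named are up to 4 of each list, ranked by the lesser of both differences from the controls among those on 1 side of both, and the 3 nearest to Nfe2l2. Alternatives were other offsets, scalings, filters, probe set rules and variance priors, and each control left out.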

Additional observations from a re-analysis of the deposited data

How the results depend on the processing

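None of the 10 genes passed limma under any of the 10 alternatives in which it was refitted. The count over all genes was 0 except with a robust variance prior (7 genes) and after centring each array on its median (1 gene), and none of these is in the group; with either control left out no residual degrees of freedom remain and no test was made. The count of genes below both controls was 0, in place of 1, after centring and with probe sets averaged. Leaving out 1 control gave 5 to 9 of the group above the remaining one and 1 to 5 below it, beside 49.9% (control 2) and 59% (control 1) of all tested genes above it, and 57 to 71 of the 108 other pathway genes above it, since 1 array is easier to exceed than 2. Of 89 values of single genes under the alternatives, 7 turned sign (Keap1, Txnrd1, Srxn1, Nqo1 and Nfe2l2), 4 of them with a control left out. With probe sets averaged, Nfe2l2 came to 0.43, Sqstm1 to 0.53 and Txn1 to 0.09. Signal over background is not known for the dim probe sets.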
